A study of Mus musculus with 8 samples.

Results

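The genes described here are the RING finger and TRIM ubiquitin ligases other than Rnf146 that had a value in RNA from the PFC of Rnf146-overexpressing mice. They were chosen by symbol, as genes named Rnf followed by a number and at most 1 letter, or Trim followed by a number. That choice was made with earlier results of these data known. Of the 15039 genes with values, 107 met this rule, 68 with an Rnf symbol and 39 with a Trim symbol. Rnf113a1, Rnf113a2, Rnft1 and Rnft2 have values too but do not match the symbol rule. GENCODE vM39 lists 148 protein-coding genes whose symbols follow it, and 106 of these were among the measured genes. The remaining measured gene, Rnf165, was not found under that symbol.

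The RNA libraries, 8 in number, were made from PFC tissue of wild-type C57BL/6NCrljOri mice, 4 in each group. Male mice aged 6 weeks received bilateral injections of AAV2/1-hsyn-RNF146-eGFP or of AAV2/1-hsyn-eGFP, and the PFC was dissected 4 weeks later. Both groups therefore carried an AAV and eGFP, and differed by design in the added mouse Rnf146 sequence. According to the paper, the mice chosen for sequencing had been checked for Rnf146 overexpression and for social deficits. The human synapsin promoter limits expression from the vector to neurons, whereas the RNA came from whole tissue with its glia, vessels and neurons that were not infected. Whether each library came from 1 mouse is not stated in the labels. The p-values measure the spread of the differences between paired libraries, described below, and not a spread between known mice.

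Ubiquitin is passed from an activating enzyme (E1) to a conjugating enzyme (E2) and then to a substrate chosen by a ligase (E3). A RING finger is a zinc-binding fold that holds the E2 and lets it hand ubiquitin directly to the substrate. TRIM proteins combine a RING finger with B-box zinc fingers and a coiled coil, although a few of them, such as Trim44 and Trim66, lack the RING. Rnf146, the overexpressed gene, is a RING ligase that recognises substrates marked with poly(ADP-ribose), such as Axin. In the brain, ligases of this kind are known for roles in axon growth, synapse turnover, DNA repair, quality control at the endoplasmic reticulum and defence against viruses.

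The deposited values were on a log2 scale, and the lowest was 7.86. They had been centred within each pair of libraries with the same replicate number, so that every gene held a mean and 4 independent pair differences. A difference is given below as the Rnf146 library minus the eGFP library of a pair, with the SD over the 4 pairs. The sum of a pair's 2 values was the same in all 4 pairs to within 1.4e-13. Because of this centring, the 2 groups of a gene did not overlap exactly when its 4 differences shared a sign. Values never came near 0, as they would for log2 counts of weakly expressed genes, and changes of weakly expressed genes are compressed on such a scale. Read depth is unknown, and values were not divided by transcript length, so they do not rank the RNA levels of different genes.

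Rnf146 itself (GRCm39, chromosome 10, 29216737 to 29238438) served as the check of the labels. It was at 10.3, 10.5, 10.4 and 10.5 in the eGFP libraries 1 to 4 and at 13.2, 13.0, 13.1 and 13.0 in the Rnf146 libraries. All 4 Rnf146 libraries thus lay above all 4 eGFP libraries, and the mean difference was 2.64 ± 0.13 (SD, n = 4 pairs). Markers of cortical excitatory neurons were present in the tissue, from Emx1 at 9.05 to Slc17a7 at 14.8. Markers of neighbouring tissue differed between the groups, and their values are given below.

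The other RING finger and TRIM genes showed no such response to added Rnf146. With limma and a block for the replicate number, 0 of the 107 were called, which required an adjusted p not above 0.1, against 1.25% of all 15039 genes. At an unadjusted p under 0.05 there were 10 of the 107 members (9.35%), against 12.4% of all genes. The smallest adjusted p of any member was 0.136, for Rnf128. Mean differences ran from -0.18 for Rnf112 to 0.24 for Trim59, with a median of -0.02 over the members and of 0.00086 over all genes. The median member differed by 0.044 in either direction, and the median gene of the table by 0.049. The median SD of the 4 pair differences was 0.093 for the members and 0.098 for all genes.

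How large a difference on the deposited scale these libraries could have missed is shown by the 95% intervals of limma. Changes of weakly expressed genes are compressed on this scale, so a narrow interval there does not bound the change in RNA. The interval of a member extended 0.12 to either side of its mean difference at the median, from 0.090 to 0.24. The narrowest was that of Rnf223, which also had the lowest mean value of the members, 8.24. In 100 of the 107 members the whole interval lay within 0.3 of 0, and in all 107 within 0.5. Over all genes, 90.9% and 98.4% of the intervals lay within these bounds. The outermost bounds among the members were -0.37 for Rnf112 and 0.44 for Trim59.

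**Figure D1:**
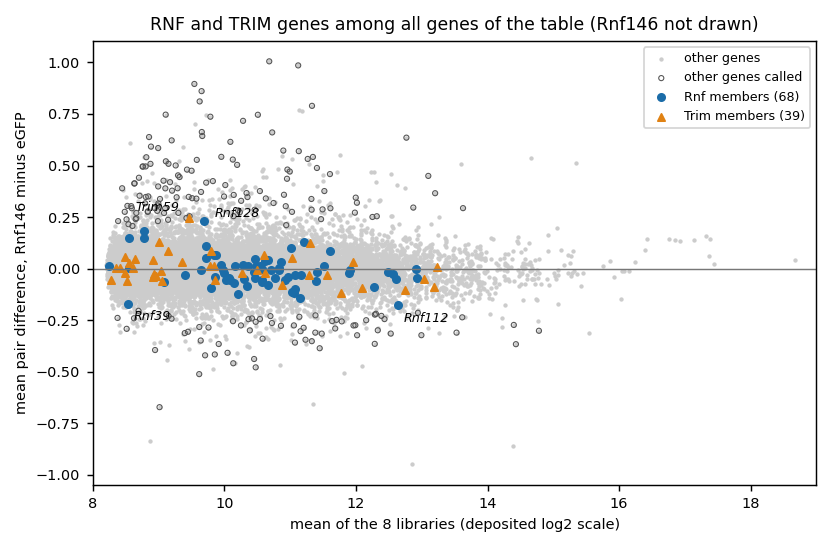
Each point is a gene, with its mean over the 8 libraries on the x axis and its mean pair difference on the y axis, both on the deposited log2 scale. Blue circles are the 68 Rnf members and orange triangles the 39 Trim members, which lie between -0.18 and 0.24 inside the cloud of other genes (grey), while the outlined genes that were called mostly lie farther out.

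The direction was the same in all 4 pairs for 18 of the 107 members, or 16.8%, against 20.6% of all genes. Of these, 7 had all their Rnf146 libraries above all their eGFP libraries, where 10.4% of all genes were. The 7 were Rnf128, Rnf207, Trim36, Rnf13, Trim33, Trim26 and Trim45. Another 11 members were lower in all 4 pairs, where 10.2% of all genes were. The members' share was thus below the table's for higher values (7 of 107) and about the same for lower values (11 of 107). Among the Rnf genes, 25 had a mean difference above 0 and 43 below it, and among the Trim genes 19 and 20.

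**Figure D2:**
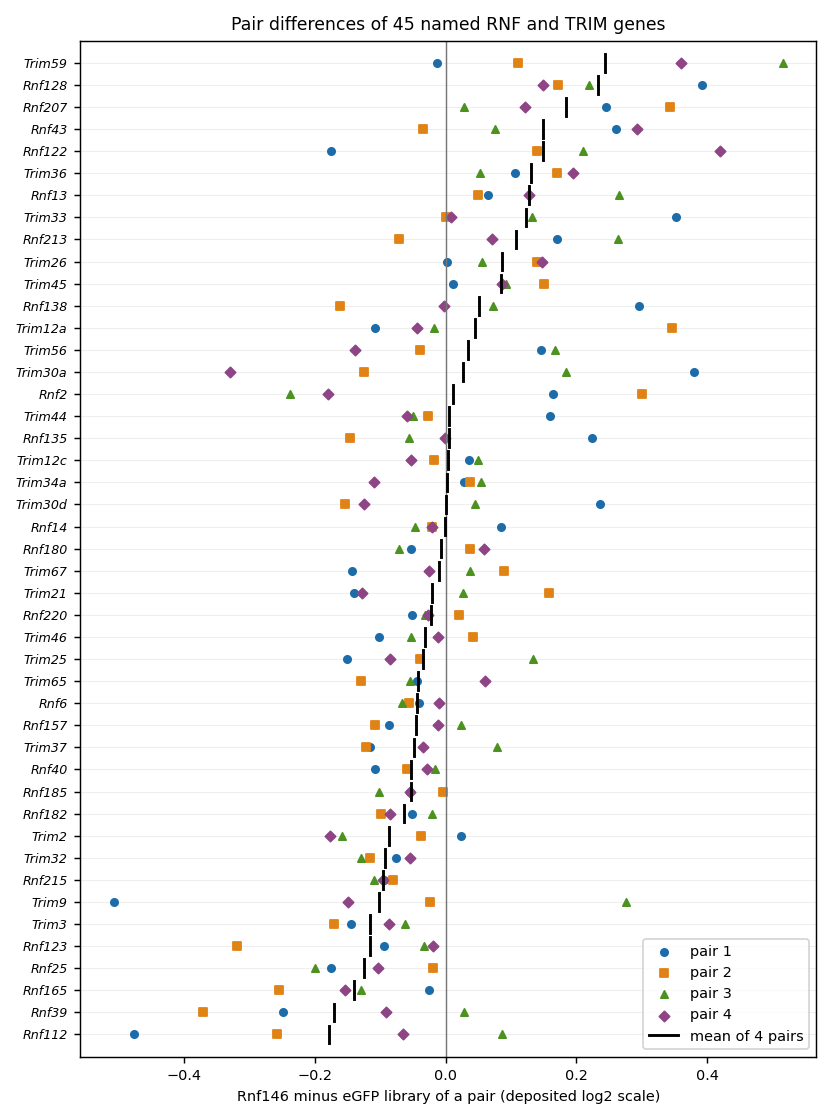
Pair differences (x axis, Rnf146 minus eGFP library, deposited log2 scale) of the 45 named members, sorted by their mean (black bar), with 1 symbol for each of the 4 pairs. Most members have pairs on both sides of 0, and Trim9, Trim30a, Rnf2, Rnf122 and Rnf112 have the widest spreads.

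The member nearest to a call was Rnf128 (GRCm39, chromosome X, 138463952 to 138574139, plus strand), a transmembrane ligase of endosomes best known for holding T cells unresponsive. Its value was 9.49, 9.60, 9.58 and 9.61 in the eGFP libraries 1 to 4 and 9.88, 9.77, 9.80 and 9.76 in the Rnf146 libraries. The lowest Rnf146 library stood above the highest eGFP library, and pair 1 had the widest gap, 0.39 against 0.15 to 0.22 in the other 3 pairs. The mean difference was 0.23 ± 0.11 (SD, n = 4 pairs), with a 95% interval from 0.11 to 0.36 and an adjusted p of 0.136 from limma. Rnf128 was not called with the block in any alternative analysis, and was called without it (adjusted p = 0.0066 from limma). The fit without the block counts the centred values as independent and called 21.5% of all genes, so it adds no support.

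Rnf128 belongs to the membrane ligases with a protease-associated domain outside the cytoplasm, of which 8 of 10 listed genes were measured. Of these 8, 6 had a mean difference above 0 and 2 below it, with a median of 0.05. Rnf13, a ligase of endosomes and lysosomes, was higher in all 4 pairs, by 0.06, 0.05, 0.27 and 0.13 (adjusted p = 0.359 from limma). Rnf43, which removes Frizzled receptors from the cell surface and so dampens Wnt signaling, had differences of 0.26, -0.03, 0.08 and 0.29. Its mean difference of 0.15 ± 0.16 (SD, n = 4 pairs) was no larger than the spread between the pairs (adjusted p = 0.372 from limma). The mean value of Rnf43, 8.55, was near the floor of the scale. Rnf215 went the other way in a narrow band, with differences of -0.09, -0.08, -0.11 and -0.10. Its SD of 0.012 was small beside the mean of -0.10, yet the adjusted p was 0.435, since limma draws such a small variance toward that of genes with similar values.

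Rnf207 (GRCm39, chromosome 4, 152390215 to 152403521, minus strand), known as a regulator of a cardiac potassium channel, was near the floor of the scale. It was at 8.66, 8.61, 8.76 and 8.72 in the eGFP libraries and at 8.90, 8.95, 8.79 and 8.84 in the Rnf146 libraries. The groups were apart by a narrow margin, since pair 3 differed by only 0.03. Its mean difference was 0.18 ± 0.14 (SD, n = 4 pairs; adjusted p = 0.246 from limma). Icmt overlaps it on the opposite strand by 1371 bases and had a mean difference of -0.01.

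Trim59 (GRCm39, chromosome 3, 68942621 to 68952332, minus strand), a TRIM protein anchored in membranes, had the largest mean difference of the members. Its eGFP values were 9.47, 9.41, 9.21 and 9.29 and its Rnf146 values 9.46, 9.52, 9.72 and 9.65. The groups overlapped in pair 1, where the difference was -0.01, whereas pair 3 differed by 0.52. The mean of 0.24 ± 0.24 (SD, n = 4 pairs) was as large as its spread (adjusted p = 0.287 from limma).

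Trim36, a microtubule-binding TRIM with a COS box, was at 8.95, 8.92, 8.97 and 8.90 in the eGFP libraries and at 9.05, 9.09, 9.03 and 9.10 in the Rnf146 libraries. The groups did not overlap, and the mean difference was 0.13 ± 0.06 (SD, n = 4 pairs; adjusted p = 0.305 from limma). Rnf39, a gene of the major histocompatibility region, was at 8.66, 8.72, 8.53 and 8.58 in the eGFP libraries and at 8.41, 8.35, 8.55 and 8.49 in the Rnf146 libraries. It was lower in 3 of the 4 pairs, at -0.17 ± 0.18 on average (SD, n = 4 pairs), and did not pass the test (adjusted p = 0.340 from limma).

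**Figure D3:**
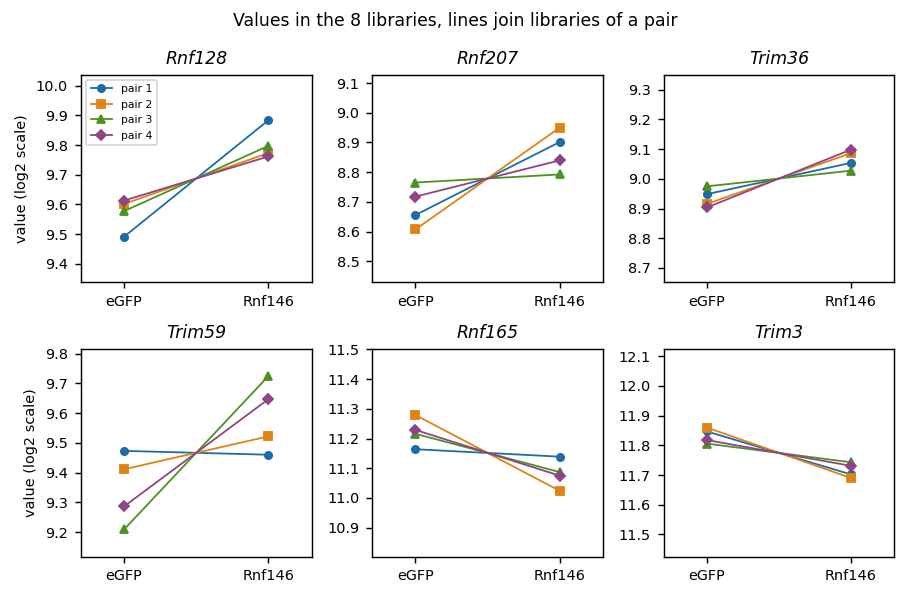
Values of 6 members in the 8 libraries (y axis, deposited log2 scale, each panel spanning the same range), with a line joining the eGFP and the Rnf146 library of a pair. The lines cross at the gene's mean because the values had been centred within pairs, and only Trim59 among these 6 has a pair, pair 1, that runs against the others.

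The 11 members listed for known roles in neurons all had a mean difference below 0, as had 7441 of all 15039 genes. None of the 11 was called, against 1.25% of all genes. The list was made with earlier results of these data known. Their median difference was -0.09, against 0.00086 for all genes. Of the 11, 4 were lower in all 4 pairs, where 10.2% of all genes were. Averaged over the 11 genes, the difference was -0.15, -0.08, -0.02 and -0.07 in the 4 pairs. Rnf112 and Trim9 weighed on the average of pair 1, at -0.48 and -0.51. The medians over the 11 genes were closer together, at -0.09, -0.10, -0.05 and -0.07. Bulk tissue does not tell fewer cells of a type from less RNA per cell. The 8 markers of cortical excitatory neurons averaged -0.28, -0.20, -0.07 and -0.14 in the same pairs, with 2 of the 8 called lower. Their medians were -0.35, -0.30, -0.09 and -0.18. Whether these markers account for the values of the 11 ligases was not tested.

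Among them, the TRIM proteins with NHL repeats, a propeller-shaped domain that binds RNA or proteins, stood closest together. Trim3, which is enriched in brain and acts on postsynaptic scaffold proteins, was at 11.85, 11.86, 11.81 and 11.82 in the eGFP libraries and at 11.70, 11.69, 11.74 and 11.73 in the Rnf146 libraries. The groups did not overlap, and its mean difference of -0.12 ± 0.05 (SD, n = 4 pairs) had an adjusted p of 0.329 from limma. Trim32, mutated in a limb-girdle muscular dystrophy, had differences of -0.08, -0.12, -0.13 and -0.05 (adjusted p = 0.423 from limma). Trim32 lies wholly within Astn2 on the opposite strand, and Astn2 had a mean difference of 0.09. Trim2, which ubiquitinates neurofilament light chain, differed by 0.02, -0.04, -0.16 and -0.18, so that pair 1 was on the other side of 0. The remaining NHL member, Trim71, is not analysed here.

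Rnf165, a nuclear ligase that promotes motor axon elongation, was lower in all 4 pairs, with eGFP values of 11.16, 11.28, 11.22 and 11.23 and Rnf146 values of 11.14, 11.02, 11.09 and 11.08. Its mean difference was -0.14 ± 0.09 (SD, n = 4 pairs; adjusted p = 0.305 from limma). Rnf182, a brain-enriched membrane ligase, had differences of -0.05, -0.10, -0.02 and -0.09. Rnf157, a ligase linked to neuronal survival, and Rnf180, which targets monoamine oxidase A, had mean differences of -0.05 and -0.0070.

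Rnf112 and Trim9 had wider spreads than the other neuronal members. Rnf112, a brain-enriched RING protein with a GTPase domain, was at 12.88, 12.77, 12.60 and 12.68 in the eGFP libraries and at 12.40, 12.51, 12.69 and 12.61 in the Rnf146 libraries. The groups overlapped, because pair 3 had the opposite sign, and the spread exceeded the mean of -0.18 ± 0.24 (SD, n = 4 pairs). Trim9, which binds the netrin receptor DCC and shapes axon branching, differed by -0.51 in pair 1 and by 0.28 in pair 3, with a mean of -0.10 ± 0.32 (SD, n = 4 pairs). Trim67, its closest relative, differed by -0.14, 0.09, 0.04 and -0.03, and Trim46, which bundles microtubules at the axon initial segment, by -0.10, 0.04, -0.05 and -0.01.

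Oligodendrocyte markers differed between the pairs more than most members did. The 8 oligodendrocyte markers averaged -0.13, 0.47, 0.90 and 0.55 in pairs 1 to 4, with none called. Trim59, at -0.01, 0.11, 0.52 and 0.36, had its pairs in the same order. The averages of the cortical excitatory neuron markers had that order too, so it does not single out 1 cell type. Trim9 and Rnf13 also had their highest difference in pair 3, and Rnf122, at -0.18, 0.14, 0.21 and 0.42, its lowest in pair 1. The mean value of Rnf122, 8.78, was near the floor of the scale. A later fit, chosen with the data in view, took the mean of the oligodendrocyte markers as a covariate beside the block. In it the difference of Trim59 was 0.02 and that of Rnf122 was -0.05. Both had been picked out for pairs that resembled those of the markers, so these smaller differences are no test. All 8 markers had an unadjusted p under 0.05 from limma between the groups, so markers and group cannot be fully told apart. In that fit 2 of the 107 members were called, both lower, against 1.64% of all genes. They were Rnf112 (-0.42, adjusted p = 0.052) and Trim9 (-0.43, adjusted p = 0.058), both from limma. Without the covariate their mean differences were -0.18 and -0.10. Rnf112 and Trim9 also had their lowest difference in pair 1 and their highest in pair 3, as the markers had. Their calls in this fit are therefore no test either.

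Markers of other cells differed as well, and their part in the members' values was not tested except where a covariate is named. The 10 striatal markers averaged -0.11, 1.32, 0.70 and 0.28 in pairs 1 to 4, and the 6 measured of 10 septal and basal forebrain markers 0.57, 0.69, 0.33 and 0.58, with all 6 called higher. Chat, Slc18a3, Lhx8 and Gbx1 of that list were not measured. Both measured of 5 ependymal markers were higher in all 4 pairs. Of 6 interneuron markers, the general GABA neuron genes Gad1, Gad2 and Slc32a1 were called higher, whereas Pvalb, Sst and Vip, which mark single classes, had mean differences of -0.03, -0.06 and -0.23 and were not called. The 9 microglial markers averaged -0.18, -0.27, -0.10 and -0.17, with 1 called lower, whereas astrocyte and endothelial markers averaged -0.03 and 0.0068 over the pairs. A further fit took the striatal, septal and ependymal markers as a covariate beside the block. In it 0 of the 107 members were called, against 2 of all 15039 genes, so the absence of calls says little about the members. There, 8 of the 107 members and 807 of all genes had an unadjusted p under 0.05. The smallest adjusted p of a member was 0.751.

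**Figure D4:**
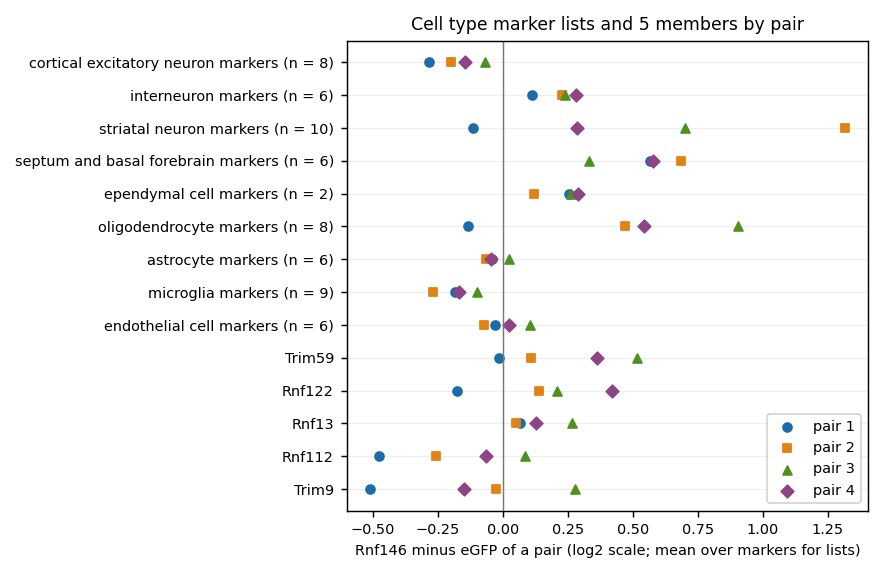
Difference between the Rnf146 and the eGFP library of each pair (x axis, deposited log2 scale), averaged over the measured markers of 9 cell types and shown for 5 members singly. Pair 1 is the lowest for oligodendrocyte, striatal, cortical excitatory neuron and interneuron markers and for Trim59, Rnf122, Rnf112 and Trim9. The septal markers are above 0 in all 4 pairs.

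Members linked to Wnt signaling were listed apart, since Rnf146 itself acts on that pathway. Besides Rnf43 these were Rnf14, Rnf138, Rnf220 and Trim33, and none of the 5 was called, against 1.25% of all genes. Their median difference was 0.05. Trim33, a nuclear TRIM with a PHD finger and a bromodomain that acts on Smad4 and on nuclear β-catenin, was above 0 in all 4 pairs, with differences of 0.35, 0.00042, 0.13 and 0.0080. Rnf138, which targets TCF/LEF factors and DNA-end resection proteins, had differences of 0.30, -0.16, 0.07 and -0.0019. Rnf220, which stabilises β-catenin, differed by -0.05, 0.02, -0.03 and -0.03. Rnf14, a coactivator of TCF/LEF factors, had a mean difference of -0.0013 ± 0.06 (SD, n = 4 pairs), with a 95% interval from -0.10 to 0.10. Znrf3, the partner of Rnf43 at Frizzled receptors and outside the symbol rule, had a mean difference of -0.01.

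Many TRIM genes are induced by interferon, through promoter elements in which the bases GAAA are repeated at a short distance. RefSeq promoter windows of 300 bases (GRCm38.p6, reaching from upstream of a gene's start to just past it) were found for 83 of the 107 members. The letters GAAANNGAAA, read on either strand, were in the windows of 11 of these 83 genes (13.3%), against 3.55% of the 11133 genes of the table with a window and 3.99% of all 27025 genes with one. The share was 8 of 30 among the Trim genes (26.7%) and 3 of 53 among the Rnf genes (5.66%). The interferon and antiviral members held 7 of the 8 Trim genes with a match, of 11 with a window, and Trim2 was the eighth. The median GC content of the windows was 56.7% for the Trim genes, 61.7% for the Rnf genes and 60.7% for the genes of the table. The matches of these 7 interferon and antiviral genes are shown in 30 bases each, with the letters of the motif in capitals, because most other members lack them. Trim30a has a match in another window as well. They are written 5′ to 3′ on the gene's own strand, so that a match on the other strand reads TTTC and then TTTC.
Trim12a, chr7:104315466-104315495, minus strand: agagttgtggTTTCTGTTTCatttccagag
Trim12c, chr7:104353359-104353388, minus strand: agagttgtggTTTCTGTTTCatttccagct
Trim30a, chr7:104465210-104465239, minus strand: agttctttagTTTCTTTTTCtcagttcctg
Trim30d, chr7:104507871-104507900, minus strand: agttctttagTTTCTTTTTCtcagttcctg
Trim34a, chr7:104244457-104244486, plus strand: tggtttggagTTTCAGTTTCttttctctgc
Trim21, chr7:102565447-102565476, minus strand: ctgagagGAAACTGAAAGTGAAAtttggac
Trim26, chr17:36836979-36837008, plus strand: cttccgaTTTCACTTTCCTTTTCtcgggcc

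The capitals of Trim21 and Trim26 hold 2 overlapping matches each, and the others 1. The 30 bases printed for Trim30a and Trim30d were the same. These genes, Trim12a, Trim12c and Trim34a lie in 1 cluster on chromosome 7 (GRCm39, from 103893663 at Trim34a to 104157107 at Trim30d). Reads shared by such close copies may have been split between them, so their single values are uncertain. A match is a string of letters, and whether a factor binds there was not measured.

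Of the 17 genes listed as interferon-induced or antiviral, 12 were measured, with mean values of 8.35 to 9.80. None was called, against 1.25% of all genes. Of the 12, 9 had a mean difference above 0 and 3 below it, and the median difference was 0.0042. Their spread between pairs was wide for their small means, with a median SD of 0.14 against 0.098 over all genes. Trim30a, which limits NF-κB signaling, was at 8.36, 8.61, 8.45 and 8.71 in the eGFP libraries and at 8.74, 8.48, 8.64 and 8.38 in the Rnf146 libraries. It was higher with Rnf146 in pairs 1 and 3 and lower in pairs 2 and 4, for a mean of 0.03 ± 0.32 (SD, n = 4 pairs). Its neighbour Trim30d differed by 0.24, -0.15, 0.05 and -0.13. Trim56, which acts on the STING pathway, differed by 0.15, -0.04, 0.17 and -0.14 and so had the same signs, without a match to the motif in its window.

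Rnf213, a very large ligase with an AAA+ motor that is linked to moyamoya disease and is induced by interferon, had the largest mean difference of the list. It was 0.11 ± 0.14 (SD, n = 4 pairs), with 0.17, -0.07, 0.26 and 0.07 in the pairs (adjusted p = 0.519 from limma). Rnf135, which with Trim25 activates the RNA sensor RIG-I, differed by 0.22, -0.15, -0.06 and -0.0011, and Trim25 by -0.15, -0.04, 0.13 and -0.09. Trim65, which acts on the sensor MDA5, had a mean difference of -0.04, and Trim21, the cytosolic antibody receptor, of -0.02. Trim26 was above 0 in all 4 pairs, from 0.0020 to 0.15.

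The 12 members averaged 0.06, -0.0036, 0.07 and -0.06 in pairs 1 to 4. Of 25 other interferon-stimulated genes, 18 were measured, and they averaged -0.01, -0.04, 0.11 and -0.08 in the same pairs. None of these 18 was called either, against 1.25% of all genes, and 9 had a mean difference above 0. In both lists pair 3 was the highest and pair 4 the lowest.

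**Figure D5:**
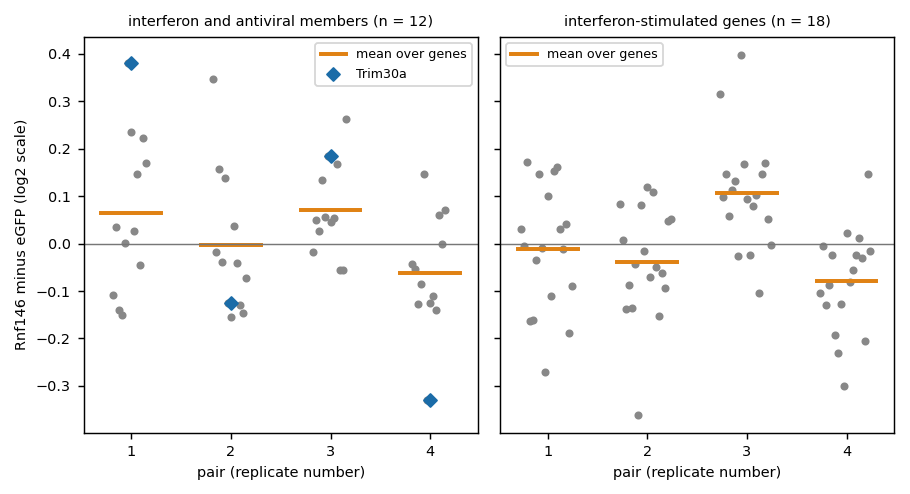
Pair differences (y axis, Rnf146 minus eGFP library, deposited log2 scale) of the 12 interferon and antiviral members (left) and of 18 other interferon-stimulated genes (right), with the mean over the genes as an orange bar and Trim30a as blue diamonds. The means lie between -0.08 and 0.11 and change sign between pairs.

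Nuclear ligases of chromatin and DNA repair were balanced, with 5 of 10 above 0 and 5 below, and a median difference of -0.0095 and a range from -0.11 to 0.07. The class includes Rnf8 and Rnf168, which mark chromatin around DNA breaks, and the SUMO-targeted ligases Rnf4 and Rnf111. Rnf2, the catalytic subunit that ubiquitinates histone H2A in Polycomb repressive complex 1, was the least stable of them. It differed by 0.16 and 0.30 in pairs 1 and 2 and by -0.24 and -0.18 in pairs 3 and 4, for a mean of 0.01 ± 0.26 (SD, n = 4 pairs). Rnf40, which ubiquitinates histone H2B, was below 0 in each pair, at -0.05 on average with a 95% interval from -0.15 to 0.05. Rnf6 was also below 0 in all 4 pairs, from -0.07 to -0.01.

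Among the RING-between-RING ligases, which first take ubiquitin onto a cysteine of their own, 7 of 8 had a mean difference below 0, with a median of -0.05 and none lower in all 4 pairs. Their mean differences ran from -0.08 to 0.02. The class includes Rnf31, the catalytic subunit of the complex that builds linear ubiquitin chains, and Rnf14. Ligases of the endoplasmic reticulum and other membranes, 14 of 18 listed, had 6 above 0 and 8 below, with a median of -0.01. Rnf185, which works in the degradation of misfolded proteins of that compartment, was below 0 in each pair (mean difference -0.05, adjusted p = 0.696 from limma).

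The TRIM proteins with a PHD finger and a bromodomain, which read chromatin, had mean differences from -0.03 to the 0.12 of Trim33, with 3 of the 4 below 0. Of the 28 Rnf genes in none of these classes, 21 were below 0, with a median of -0.03. Rnf25 was below 0 in each pair and averaged -0.12 ± 0.08 (SD, n = 4 pairs; adjusted p = 0.357 from limma). Rnf123, which degrades the cell-cycle inhibitor p27, was also lower in all 4 pairs, but pair 2, at -0.32, was well below the -0.09 to -0.02 of the others. Of the 24 remaining Trim genes, 14 were above 0 and 10 below, from -0.08 to the 0.09 of Trim26, with a median of 0.0029. Trim45, among them, was above 0 in all 4 pairs, from 0.01 to 0.15.

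The 5 members with the highest values were Trim44, Trim2, Trim37, Rnf157 and Rnf14, at 12.9 to 13.2. Their mean differences lay between -0.09 and 0.0058, and none of the 5 had the same sign in all 4 pairs. Trim37, which ubiquitinates centrosome proteins and histone H2A, differed by -0.12, -0.12, 0.08 and -0.03. Of the RING ligases with other names, 61 of 62 listed were measured. By limma with the block 0 of the 61 were called, against 1.25% of all genes. Their median difference was -0.01, with 27 above 0 and 34 below. An unadjusted p under 0.05 was found for 6 of the 61 (9.84%), against 12.4% of all genes. Without the block, limma counts the centred values as 8 independent libraries, and it then called 19 of the 107 members, 9 higher and 10 lower, against 21.5% of all genes.

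By position, 21 of the 106 members located in GENCODE vM39 lie on chromosome 11 and 14 on chromosome 7. The gene bodies of 41 members overlap another gene of the table, and only some of these overlaps are named here. Trim47 and Trim65 overlap by 5365 bases on the same strand, with mean differences of -0.06 and -0.04. Rnf8 and Gm28043 overlap by 30116 bases on the same strand, with mean differences of 0.07 and 0.04. The libraries were made with a stranded kit, but the strand setting of the quantification is not given in the sources used here. Beside Rnf13, Pfn2 had a mean difference of 0.06, beside Rnf25 Bcs1l one of 0.02, and beside Rnf39 Ppp1r11 one of -0.08. Gmppb, which overlaps Rnf123 by 1818 bases, had -0.24, with -0.63 in pair 1, where Rnf123 had -0.09. A930037H05Rik, a noncoding RNA that overlaps Rnf213 by 38631 bases, had -0.17. These 5 genes lie on the strand opposite to the member, and none of them was called.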

How the data were processed

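RNA from the PFC of 4 Rnf146 and 4 eGFP libraries had been sequenced, trimmed with cutadapt and quantified with Salmon 1.9.0 against GENCODE vM30 (GRCm39) by the authors, who also named DESeq2. The deposited values are normalized and on a log2 scale, and they arrive centred within pairs of libraries with the same replicate number, a step not given in the sources used here. Samples were grouped by their labels. Pair sums were equal to within 1.4e-13, so the replicate number was kept as a block.

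All 15039 genes were fitted with limma 3.58.1 (R 4.3.3), with group and replicate block, a variance trend, no filter on low values, and Benjamini-Hochberg adjustment over all genes, leaving 3 residual degrees of freedom. Calls required an adjusted p not above 0.1. With 4 pairs, an exact two-sided permutation test of signs cannot go below 0.125. Read totals are unknown, so no counting intervals are given. The fit was tested on simulated data.

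Members and lists were chosen with earlier results of these data known. Named members were any called, the 10 largest differences each way with 1 sign in all 4 pairs, the neuronal, interferon and Wnt lists, the 5 highest values and the 5 largest SDs. This named 43, and Trim59 and Rnf39 were added after their values were seen. Some genes overlapping a named member were named with it, and others were not. Positions are from GENCODE vM39, promoter windows from RefSeq (GRCm38.p6). No protein sequences were used here. The alternatives were no block, median centring, quantile normalization, a filter on low values, no variance trend, robust variance, array weights, a threshold of 0.05, a marker covariate, leaving out each replicate number, and an oligodendrocyte covariate added after the data had been seen.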

Additional observations from a re-analysis of the deposited data

Results flagged for a closer look

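For each of the 45 named members, the 4 pair differences were searched for 1 that stood far from the other 3. Of these 45 groups 2 were marked, where chance alone marks about 1 in 20. Trim34a, an interferon-induced TRIM of the chromosome 7 cluster, had a difference of -0.11 in pair 4, while the other 3 pairs lay between 0.03 and 0.05. Trim44, a TRIM without a RING finger and the member with the highest value, had a difference of 0.16 in pair 1, while the other 3 lay between -0.06 and -0.03. Because values had been centred within pairs, it cannot be told which library of the pair stood apart.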

How the results depend on the processing

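Of the 107 members, 0 were called under each alternative except 2. The fit with no replicate block called 19 members and 3226 genes in all, counting each centred value as independent. The oligodendrocyte covariate, added after the data had been seen, called 2 members and moved the members' median difference to -0.0030. Genes called over the whole table numbered 188 in the reported fit, 80 at an adjusted p of 0.05, 355 with array weights, 2 with the striatal, septal and ependymal covariate, and from 14 (without replicate 4) to 421 (without replicate 1) when 1 replicate number was left out. Without replicate 2 there were 42, and the members' median difference, -0.015 in the reported fit, was -0.024. The cause of these shifts was not tested. The filter on low values kept 11279 genes and 88 members, 32 of them named. That filter, the fit without the block and both other variance settings leave a mean difference as it is, so no sign could turn there.

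Of the 45 named members, 26 kept their sign under each alternative that gave them a value and 19 did not, 15 of these with a mean difference under 0.05 in size. With array weights the sign turned for Rnf135 (-0.016), Rnf180 (0.0057), Rnf2 (-0.011), Trim12c (-0.0064), Trim30a (-0.045), Trim30d (-0.036), Trim34a (-0.011) and Trim44 (-0.013). With quantile normalization it turned for Rnf135 (-0.0051), Rnf14 (0.0084), Trim12c (-0.0089), Trim30d (-0.0070) and Trim34a (-0.0059), and with median centring for Trim30d (-0.00071). With the striatal, septal and ependymal covariate it turned for Rnf123 (0.044), Rnf14 (0.053), Rnf2 (-0.13), Trim12a (-0.25), Trim34a (-0.029) and Trim65 (0.032). With the oligodendrocyte covariate it turned for Rnf122 (-0.046), Rnf14 (0.058) and Trim12a (-0.0030). Leaving out 1 replicate number at a time, the mean difference ranged from -0.068 to 0.056 for Rnf135, -0.030 to 0.12 for Rnf138, -0.030 to 0.014 for Rnf14, -0.029 to 0.014 for Rnf180, -0.085 to 0.095 for Rnf2, -0.057 to 0.095 for Trim12a, -0.012 to 0.022 for Trim12c, -0.081 to 0.019 for Trim21, -0.092 to 0.0030 for Trim25, -0.091 to 0.15 for Trim30a, -0.078 to 0.052 for Trim30d, -0.015 to 0.040 for Trim34a, -0.045 to 0.027 for Trim44, -0.011 to 0.091 for Trim56, -0.044 to 0.034 for Trim67 and -0.23 to 0.034 for Trim9.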

Other observations

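Mid1, a TRIM protein with a COS box that carries another name and is mutated in Opitz syndrome, was the most variable of the 61 RING ligases outside the symbol rule. It was singled out after its values were seen. Its value was 10.3, 10.2, 10.3 and 11.3 in the eGFP libraries 1 to 4 and 10.4, 10.4, 10.4 and 9.40 in the Rnf146 libraries. The differences of 0.07, 0.20 and 0.10 in pairs 1 to 3 thus stood against -1.87 in pair 4. Its mean difference of -0.37 had a 95% interval from -1.07 to 0.32, and the adjusted p from limma was 0.673.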
